A study of Mus musculus with 18 samples.

Results

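Costimulatory and checkpoint molecules are the surface proteins through which a macrophage instructs the T cell that it presents antigen to, and 10 of their genes were described here across resting, LPS-stimulated, LPS-tolerant and carboplatin-treated macrophages. The genes were Cd40, Cd80, Cd86, Cd274, Pdcd1lg2, Icosl, Icam1, Cd83, Cd200 and Havcr2, chosen by name among the 22852 gene symbols of the count files. RNA-Seq libraries came from bone marrow-derived macrophages (BMDMs) of female C57BL/6 mice, with 3 biological replicates in each of 6 groups, 18 samples in all. Unstimulated BMDMs received neither LPS nor carboplatin. LPS-stimulated BMDMs received a single dose of LPS at 10 ng/ml, for 3 h according to the scheme of the study, since the labels give no time. LPS-primed BMDMs were held in LPS at 100 ng/ml for 24 h. LPS-tolerant BMDMs were primed in that way and then given LPS at 10 ng/ml for 3 h in fresh medium. The remaining groups were LPS-primed and LPS-tolerant BMDMs that had received 25 µM carboplatin, a platinum drug that crosslinks DNA. The study gives the drug as added before priming, while the general treatment text of the labels names it after LPS. All groups were grown in medium conditioned by L929 cells, a source of the macrophage growth factor CSF-1.

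A T cell needs a second signal beside antigen, and the B7 proteins CD80 (Cd80) and CD86 (Cd86) give it through CD28, while the same ligands restrain the T cell through CTLA-4. ICOS ligand (Icosl) acts in the same family through ICOS, and CD40 (Cd40), a TNF receptor family member, takes the signal of CD40 ligand back into the macrophage. ICAM-1 (Icam1) holds the cells together by binding the integrin LFA-1, and CD83 (Cd83) marks activated antigen-presenting cells and keeps MHC class II and CD86 on their surface. PD-L1 (Cd274) and PD-L2 (Pdcd1lg2) inhibit T cells through PD-1, CD200 (Cd200) inhibits myeloid cells through the CD200 receptor, and TIM-3 (Havcr2) is itself an inhibitory receptor. LPS, a component of Gram-negative bacteria, is sensed by TLR4 and induces many of these genes through NF-κB and interferon. LPS tolerance is the reduced response of a macrophage to LPS that it has met before.

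Between 6869667 and 14708099 read pairs per sample fell on genes, with a median of 8986463, and 26.5% to 33.1% of the pairs fell on no annotated feature. All 10 macrophage markers checked were detected in every group, and their summed level lay between 151696 and 309643 normalised counts per sample. The T cell markers Cd3e, Cd3d and Cd3g, the B cell marker Pax5 and the neutrophil markers Ly6g and Mpo had 0 counts in all samples. Of 9 dendritic cell markers, 7 had at most 10 counts in any sample, and the list summed to between 25.7 and 425 normalised counts, highest in LPS-stimulated BMDMs (339 to 425). Fscn1, with up to 323 counts, and Itgax, with up to 161, were the dendritic cell markers above that level, and their part in the results was not tested. The T cell list summed to at most 50.1 normalised counts and the NK cell list to at most 3.58. The B cell list, with Pax5 and Blk at 0, reached 323 to 1588 in unstimulated and at most 286 in all other samples, led by Ighm. The endothelial list, led by Vwf, was also highest in unstimulated samples (1404 to 1927, against 225 to 1391 in the others), the stromal list reached at most 79.3, and the part of these lists in the results was not tested. Tests came from a quasi-likelihood fit in edgeR over the 11305 genes that passed the expression filter, and a gene was called at a Benjamini-Hochberg adjusted p under 0.05. A normalised count is the count scaled to a common library size, and each log2FC is given with its SE.

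Of the 10 genes, 9 passed the expression filter. Pdcd1lg2 had 0 counts in 15 samples and 1 count in each of 3 samples, so it was not tested. A count of 0 allows a level of up to 0.191 RPKM, the count scaled to exon length and library size, in the shallowest library, for counting error only. On the RPKM scale, which allows genes to be compared, Icam1 was the most abundant of the 10 genes in all 6 groups, from 15.3 ± 2.98 in unstimulated to 460 ± 102 in LPS-stimulated BMDMs (mean ± SD, n = 3). Cd40, at 1.52 ± 0.365 RPKM, ranked below 6 of the other genes in unstimulated BMDMs, and at 161 ± 16.3 RPKM it came second after the single dose. In LPS-primed and LPS-tolerant BMDMs the second place was held by Cd274, at 32.7 ± 0.676 and 22.0 ± 6.33 RPKM, and the third by Havcr2, at 4.09 ± 2.45 and 12.8 ± 4.97 RPKM. For the 9 tested genes, 32 of the 45 pairs of neighbouring groups in the order of the group means had overlapping ranges. Such neighbours are the groups closest in mean, and the same count was not made over all tested genes.

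**Figure D1:**
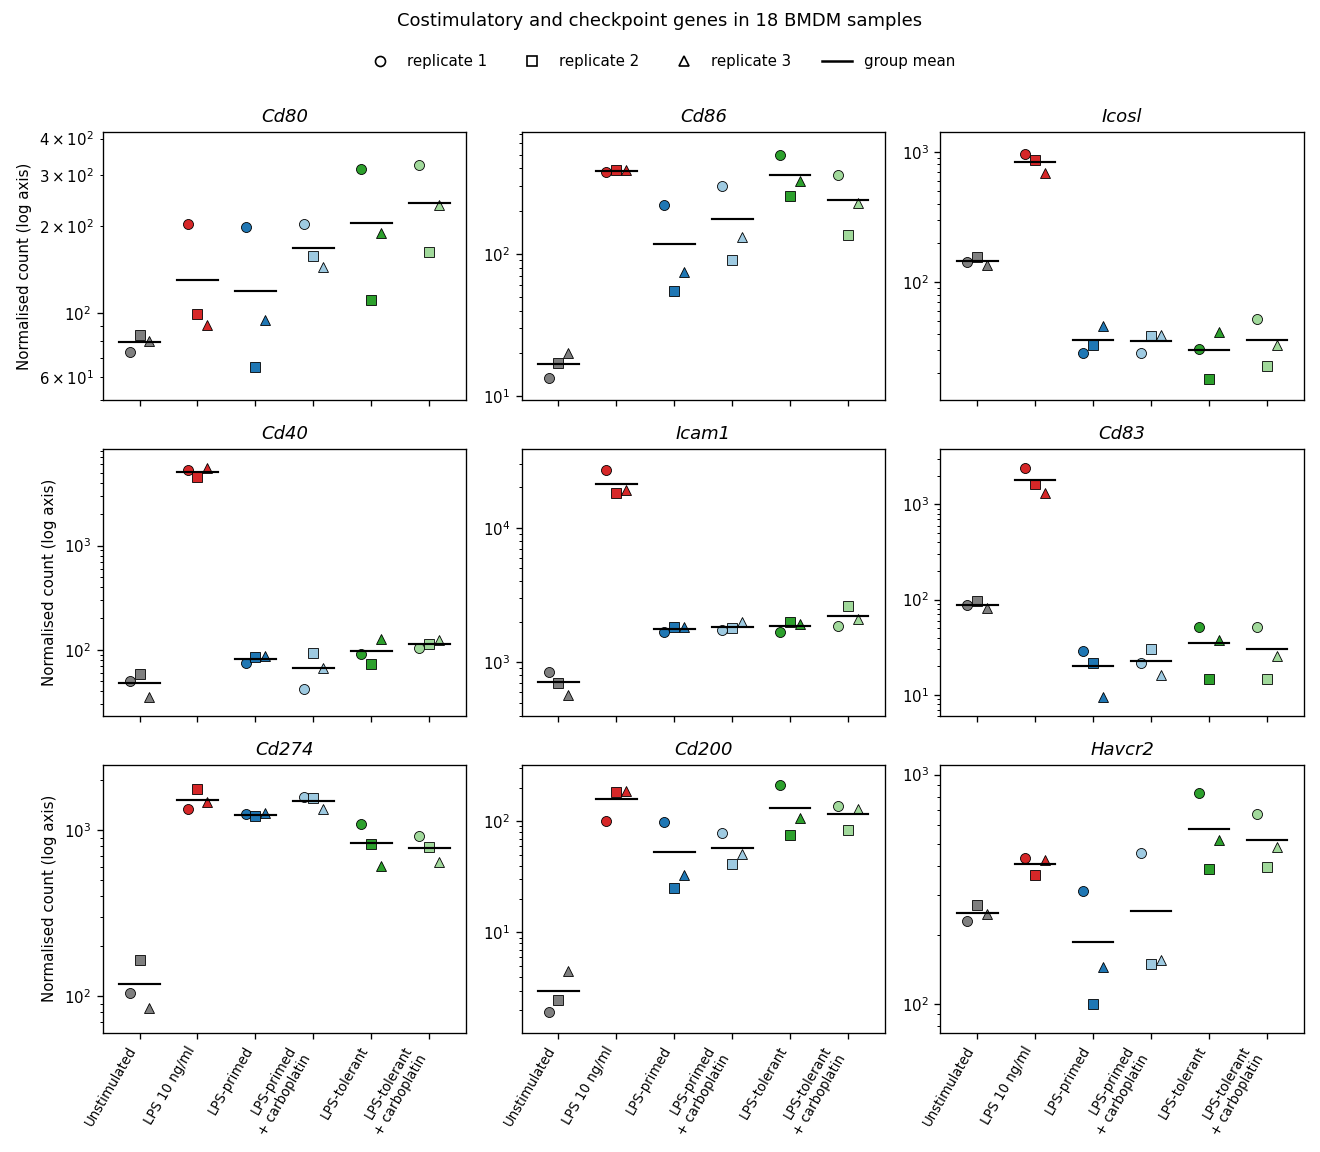
Normalised counts (log axis) of the 9 tested genes in each of the 18 samples, with 1 panel per gene, a marker shape for each replicate and a line at the group mean. Cd40, Icam1, Cd83 and Icosl stood highest in LPS-stimulated BMDMs with no overlap with any other group, while Cd86, Cd200 and Cd274 overlapped between LPS-stimulated BMDMs and at least 1 group that had been primed.

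Cd86 rose 22.6-fold after the single dose of LPS, was still raised after priming, and had overlapping ranges in LPS-tolerant and LPS-stimulated BMDMs. The gene lies at chr16:36424044-36486443 of GRCm39 on the minus strand. Unstimulated samples held 13.4, 17.2 and 20.0 normalised counts of Cd86, LPS-stimulated samples 375, 387 and 389, LPS-primed samples 222, 54.7 and 75.0, and LPS-tolerant samples 499, 254 and 325 (replicates 1, 2 and 3). Every stimulated sample lay above every unstimulated one, and LPS-tolerant samples overlapped LPS-stimulated but not LPS-primed samples. The log2FC against unstimulated BMDMs was 4.50 (SE 0.58, adjusted p = 6.5e-06) after the single dose and 2.79 (SE 0.57, adjusted p = 0.0014) after priming. Without LPS-primed replicate 1 the value after priming was 1.94 (adjusted p = 0.012), and without replicate 1 of every group it was 1.8 (adjusted p = 0.0026). Between LPS-tolerant and LPS-stimulated BMDMs the log2FC was -0.10, with a 95% interval from -1.11 to 0.91 that leaves room for a difference either way. LPS-tolerant replicate 1 (499) lay above every LPS-stimulated sample, and replicates 2 and 3 (254 and 325) lay below every one. Without replicate 1 of every group the log2FC was -0.42 (SE 0.26, adjusted p = 0.237). In bulk RNA, fewer cells that express a gene and less of its RNA per cell cannot be told apart, here and in all values below.

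Cd86 was higher in LPS-tolerant than in LPS-primed BMDMs in every fit, but the difference was called only in some of them. LPS-tolerant minus LPS-primed BMDMs gave a log2FC of 1.61 (SE 0.49, adjusted p = 0.0585), positive in 3 of 3 same-numbered pairs. The 95% interval of this log2FC ran from 0.55 to 2.67, and the ranges of both groups did not overlap. Over the fits that each lacked 1 sample the log2FC ran from 1.27 to 2.46. With the replicate number as a block it was 1.73 (SE 0.31, adjusted p = 0.00083). Without the block, the difference was also called by DESeq2 (log2FC 1.62, adjusted p = 0.016) and limma-voom (1.80, adjusted p = 0.027). EdgeR with no expression filter called it too (1.61, adjusted p = 0.039). Without LPS-primed replicate 1, which had 3.43 times the mean of the other LPS-primed samples, the log2FC was 2.46 (adjusted p = 0.008). Without LPS-tolerant replicate 1, also the highest of its group, it was 1.3 (adjusted p = 0.19). Without replicate 1 of every group it was 2.16 (adjusted p = 0.0014).

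Cd80, the other CD28 ligand, was called in none of the comparisons. It lies at chr16:38275923-38316697 on the plus strand, where the lncRNA gene Gm59959 overlaps it on the same strand, so that counting could have split or dropped shared reads. Its normalised counts were 73.6, 83.6 and 80.0 in unstimulated, 202, 98.9 and 90.7 in LPS-stimulated, 198, 64.9 and 94.7 in LPS-primed, and 313, 111 and 189 in LPS-tolerant samples. In the last 3 of these groups replicate 1 was the highest sample, and LPS-primed samples overlapped all other groups. The log2FC against unstimulated BMDMs was 0.71 (SE 0.42, adjusted p = 0.171) after the single dose and 0.59 (SE 0.42, adjusted p = 0.351) after priming. The fit with the block gave 1 call for Cd80, in LPS-tolerant against LPS-primed BMDMs, with a log2FC of 0.79 (SE 0.26, adjusted p = 0.0421) against 0.77 (SE 0.42, adjusted p = 0.307) without it.

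Because CD80 and CD86 share their receptors, the counts of both genes were also set against each other within each sample, which needs no library size. Unstimulated samples had 0.182, 0.206 and 0.25 Cd86 counts per Cd80 count. The ratio was 1.86, 3.92 and 4.29 in LPS-stimulated, 1.12, 0.842 and 0.792 in LPS-primed, and 1.60, 2.28 and 1.72 in LPS-tolerant samples. Cd86 counts were thus below Cd80 counts in every unstimulated sample and above them in every LPS-stimulated and LPS-tolerant sample, with LPS-primed samples on both sides. On the log2 scale the mean ratio rose from -2.25 ± 0.23 to 1.66 ± 0.66 (SD, n = 3) with the single dose, without overlap, and the exact permutation test gave its smallest possible p of 0.10 (two-sided, 0.15 adjusted over 6 comparisons). The ratio in LPS-tolerant samples exceeded that in LPS-primed samples by 1.02, again without overlap (exact p = 0.10, adjusted 0.15), and differed by -0.77 from that in LPS-stimulated samples, with overlap (exact p = 0.20, adjusted 0.24). This unpaired exact test cannot give a p under 0.10 with 3 samples against 3, and an exact test of 3 pairs cannot give one under 0.25. Within same-numbered pairs the ratio rose in 3 of 3 with the single dose (by 3.35, 4.25 and 4.10 on the log2 scale) and was higher in LPS-tolerant than in LPS-primed samples in 3 of 3 (by 0.51, 1.44 and 1.12).

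**Figure D2:**
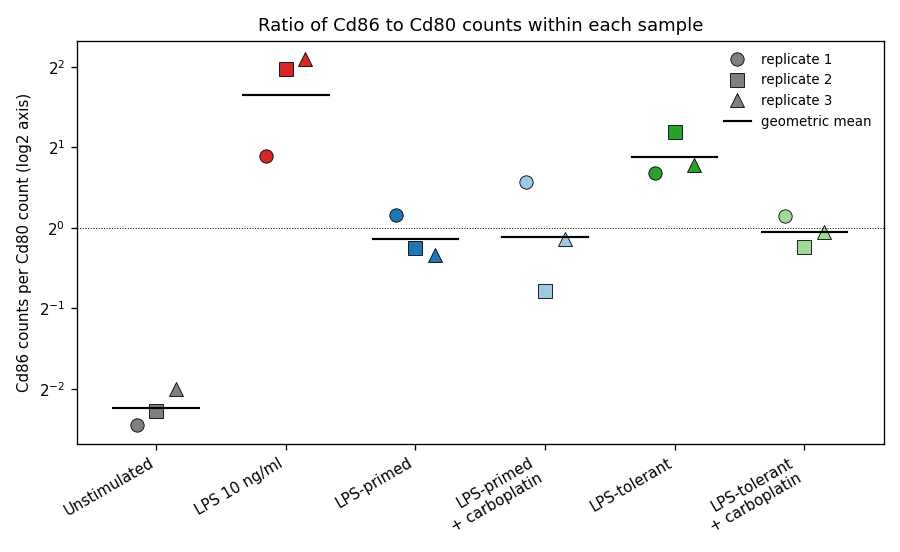
Cd86 counts per Cd80 count in each of the 18 samples (log2 axis), by group, with a marker shape for each replicate, a line at the geometric mean and a dotted line at equal counts. All unstimulated samples lay between 0.182 and 0.25, and LPS-tolerant samples given carboplatin (0.845 to 1.11) lay below those without it (1.60 to 2.28).

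Icosl, whose product binds ICOS on T cells, rose with the single dose and fell under its resting level after priming. It lies at chr10:77905136-77919747 on the plus strand. Its normalised counts were 143, 155 and 136 in unstimulated, 963, 867 and 689 in LPS-stimulated, 28.6, 33 and 45.9 in LPS-primed, and 30.4, 18.1 and 41.2 in LPS-tolerant samples. LPS-stimulated samples were the highest and unstimulated samples the next, while LPS-primed and LPS-tolerant samples overlapped below both. The log2FC was 2.53 (SE 0.27, adjusted p = 9.4e-07) for the single dose and -2.0 (SE 0.29, adjusted p = 6.2e-05) for priming, a 4.01-fold fall. LPS-tolerant BMDMs had 3.56% of the Icosl level of LPS-stimulated BMDMs, a log2FC of -4.82 (SE 0.31, adjusted p = 7.6e-09). The second dose moved the primed level by -0.28 (95% interval from -0.97 to 0.41).

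Cd40 showed the largest rise of the 9 tested genes after the single dose and had nearly all of it missing after the second. It lies at chr2:164897544-164914868 on the plus strand, and no other gene overlaps it. Unstimulated samples held 50.7, 58.2 and 35.4 normalised counts, and LPS-stimulated samples held 5287, 4533 and 5520. LPS-primed samples held 74.1, 85.4 and 86.3, and LPS-tolerant samples 91.2, 73.4 and 126. The LPS-stimulated samples stood far apart from all others, and the LPS-primed and LPS-tolerant ranges overlapped just above the unstimulated range. The single dose raised Cd40 106-fold, a log2FC of 6.73 (SE 0.29, adjusted p = 2.6e-11). In LPS-tolerant BMDMs the level was 1.89% of that in LPS-stimulated BMDMs, with a log2FC of -5.73 (SE 0.27, adjusted p = 1.8e-10).

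After priming alone, Cd40 was 1.70-fold higher than in unstimulated BMDMs (log2FC 0.76, SE 0.25, adjusted p = 0.0346), and this call depended on the fit. Without unstimulated replicate 1 or 3 the adjusted p was 0.058 and 0.13, and without LPS-primed replicate 2 or 3 it was 0.082 and 0.093. It was also 0.13 with library size alone, 0.062 with limma-voom and 0.073 with the samples of the compared groups only.

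Icam1, the adhesion ligand of LFA-1, followed a similar course but kept part of its rise. It lies at chr9:20926672-20940113 on the plus strand, where the lncRNA gene Gm47079 overlaps it on the opposite strand. Its normalised counts were 849, 704 and 574 in unstimulated, 26712, 18034 and 19117 in LPS-stimulated, 1670, 1831 and 1819 in LPS-primed, and 1679, 1979 and 1908 in LPS-tolerant samples. Unstimulated samples were the lowest, and LPS-primed and LPS-tolerant samples shared a range that lay between those of the other groups. Icam1 rose 30-fold with the single dose (log2FC 4.91, SE 0.20, adjusted p = 2.5e-11) and 2.50-fold with priming (log2FC 1.32, SE 0.18, adjusted p = 2.7e-05). Its level in LPS-tolerant BMDMs was 8.71% of that in LPS-stimulated BMDMs (log2FC -3.52, SE 0.19, adjusted p = 8.9e-10). The second dose changed the primed level by 0.07, with a 95% interval from -0.31 to 0.44 that was the narrowest among the 9 genes.

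Cd83, at chr13:43938251-43956634 on the plus strand, was raised by the single dose and fell after priming. Unstimulated samples had 87.9, 95.9 and 81.8 normalised counts, LPS-stimulated samples 2446, 1656 and 1320, LPS-primed samples 28.6, 21.6 and 9.38, and LPS-tolerant samples 51.9, 14.7 and 38.1. As for Icosl, the unstimulated samples lay below the LPS-stimulated and above all LPS-primed and LPS-tolerant samples. The log2FC was 4.35 (SE 0.42, adjusted p = 3e-07) for the single dose, -2.17 (SE 0.46, adjusted p = 0.0019) for priming, and -5.73 (SE 0.46, adjusted p = 8.8e-08) for LPS-tolerant against LPS-stimulated BMDMs, of whose level 1.93% was left. LPS-primed samples held only 27, 19 and 10 counts of Cd83, and the log2FC of LPS-tolerant against LPS-primed BMDMs was 0.79, with a 95% interval from -0.28 to 1.86.

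Cd274, which encodes the checkpoint ligand PD-L1, rose with the single dose and stayed high after priming. It lies at chr19:29344529-29365495 on the plus strand, with Plgrkt overlapping it on the opposite strand, and Pdcd1lg2 lies next to it at chr19:29388319-29448882. Normalised counts of Cd274 were 104, 166 and 84.5 in unstimulated, 1342, 1776 and 1469 in LPS-stimulated, 1244, 1216 and 1267 in LPS-primed, and 1085, 820 and 605 in LPS-tolerant samples. All stimulated samples lay above the unstimulated ones, and the LPS-tolerant samples lay below both the LPS-primed and the LPS-stimulated samples. The rise was 12.9-fold (log2FC 3.69, SE 0.25, adjusted p = 5.3e-09) with the single dose and 10.5-fold (log2FC 3.39, SE 0.25, adjusted p = 3.3e-08) with priming. LPS-tolerant BMDMs kept 54.7% of the level of LPS-stimulated BMDMs (log2FC -0.87, SE 0.23, adjusted p = 0.0061). Against LPS-primed BMDMs their log2FC was -0.57 (SE 0.22, adjusted p = 0.149), and -0.60 (SE 0.18, adjusted p = 0.0246) with the block. A ratio of the PD-1 ligands could not be formed, since Pdcd1lg2 had at most 1 count in any sample.

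Cd200, the ligand of the inhibitory CD200 receptor, was close to undetected at rest and was raised by both forms of LPS exposure. The gene lies at chr16:45202470-45229594 on the minus strand. Counts in unstimulated samples were 2, 3 and 5, or 1.91, 2.46 and 4.54 normalised counts, against 101, 185 and 189 in LPS-stimulated, 99.5, 25.1 and 32.8 in LPS-primed, and 213, 75.1 and 108 in LPS-tolerant samples. The unstimulated samples lay below all others, the LPS-primed samples lay below the LPS-stimulated ones, by little for replicate 1 and by far for the others, and the LPS-tolerant samples overlapped both. Summed over 3 samples, the scaled count was 55.5 times that of unstimulated BMDMs after the single dose (95% exact interval 30 to 116, counting error only) and 17.6 times after priming (9.31 to 37.4). By edgeR the log2FC was 5.68 (SE 0.64, adjusted p = 1.7e-06) and 4.09 (SE 0.66, adjusted p = 0.00018). The latter was 3.24 (adjusted p = 0.00084) without LPS-primed replicate 1 and 3.03 (adjusted p = 0.00066) without replicate 1 of every group.

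LPS-tolerant BMDMs had 83.5% of the Cd200 level of LPS-stimulated BMDMs, with a log2FC of -0.28 (SE 0.45, adjusted p = 0.673). Without replicate 1 of every group the same comparison gave -1.03 (SE 0.29, adjusted p = 0.017). Against LPS-primed BMDMs the log2FC was 1.32 (SE 0.47, adjusted p = 0.109), 1.35 (SE 0.38, adjusted p = 0.0211) with the block, and 2.17 (adjusted p = 0.013) without LPS-primed replicate 1. Cd200 and Cd86 therefore had values in LPS-tolerant cells that overlapped those of LPS-stimulated cells. In each gene the difference from LPS-primed cells was called in 1 of the 6 fits that lacked 1 sample. That fit lacked LPS-primed replicate 1, the highest of its group, so its removal by itself widened the difference. Without LPS-tolerant replicate 1, also the highest of its group, the log2FC was 0.8 (adjusted p = 0.4) for Cd200 and 1.3 (adjusted p = 0.19) for Cd86. Without replicate 1 of every group both were called, at 1.66 (adjusted p = 0.012) and 2.16 (adjusted p = 0.0014).

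Havcr2, which encodes the inhibitory receptor TIM-3, was the 1 gene called higher in LPS-tolerant than in LPS-primed BMDMs in the main edgeR fit, which held no block. DESeq2, limma-voom and edgeR with no expression filter, all without the block, also called Cd86 higher there. With the block Cd80, Cd86 and Cd200 were called higher there as well. Havcr2 lies at chr11:46345673-46374149 on the plus strand. Its normalised counts were 230, 271 and 246 in unstimulated, 433, 365 and 426 in LPS-stimulated, 311, 100 and 145 in LPS-primed, and 829, 389 and 521 in LPS-tolerant samples. LPS-tolerant samples lay above all LPS-primed and unstimulated samples and overlapped LPS-stimulated samples. The log2FC of LPS-tolerant against LPS-primed BMDMs was 1.64 (SE 0.43, adjusted p = 0.0299), and 1.69 (SE 0.28, adjusted p = 0.00042) with the block. Without LPS-primed replicate 1 it was 2.23 (adjusted p = 0.0089). The call was lost without LPS-primed replicate 2 or 3 or LPS-tolerant replicate 1 (adjusted p = 0.12 each), without LPS-tolerant replicate 3 (adjusted p = 0.063), and with the samples of the compared groups only (adjusted p = 0.065). After the single dose the log2FC was 0.71 (SE 0.42, adjusted p = 0.166), without overlap with unstimulated samples, and the block called it at 0.68 (SE 0.27, adjusted p = 0.0347). It was also called there without replicate 1 of every group (0.61, adjusted p = 0.026). After priming it was -0.43 (SE 0.42, adjusted p = 0.521), and without replicate 1 of every group Havcr2 was called lower, at -1.07 (SE 0.22, adjusted p = 0.0041).

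Counted together, 7 of the 9 tested genes were higher and 0 lower after the single dose, where 24.3% of all tested genes were called higher and 26.9% lower. After priming 5 were higher (Cd40, Cd86, Cd274, Icam1 and Cd200) and 2 lower (Icosl and Cd83), against 12.1% and 13.1% of all tested genes. In LPS-tolerant against LPS-stimulated BMDMs 5 were lower (Cd40, Cd83, Icosl, Icam1 and Cd274) and 0 higher, against 18.3% and 16.2%. The second dose after priming gave 1 higher gene, Havcr2, and 0 lower, against 3.6% and 2.71%. With the block it gave 4 higher (Cd80, Cd86, Cd200 and Havcr2) and 1 lower (Cd274). The block also called more genes overall there, 1093 higher and 941 lower of all 11305 tested. The median log2FC of the 9 genes was 4.35 for the single dose, 0.76 for priming, -0.87 for LPS-tolerant against LPS-stimulated and 0.77 for LPS-tolerant against LPS-primed BMDMs, beside medians between -0.09 and 0.00 over all tested genes. At the limits of the study, a log2FC beyond 2 in size with an adjusted p under 0.05, 7 genes were higher and 0 lower after the single dose (6.42% and 5.54% of all tested genes), and 3 higher and 2 lower after priming (3.41% and 4.07%). In LPS-tolerant BMDMs 0 were higher and 4 lower than in LPS-stimulated BMDMs (2.97% and 5.07%), and 0 were higher and 0 lower than in LPS-primed BMDMs (0.372% and 0.31%). The comparisons share groups: unstimulated, LPS-stimulated, LPS-primed and LPS-tolerant samples each enter 2 of them.

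Whether the second dose drew a weaker response than the first was tested as the difference of both responses. That difference was below 0 and called for 7 of the 9 genes, against 13.3% of all tested genes called lower and 10.5% higher. At the limits of the study it was again lower for 7 and higher for 0 (4.93% and 3.08%). Cd40 had the largest, at -6.49 (SE 0.36, adjusted p = 2.2e-09), followed by Icam1 at -4.84 (SE 0.26), Cd200 at -4.36 (SE 0.81) and Cd274 at -4.26 (SE 0.33). Cd83 had -3.56 (SE 0.64), Cd86 -2.88 (SE 0.73, adjusted p = 0.0081) and Icosl -2.81 (SE 0.41). Without LPS-primed replicate 1 the difference was -3.52 (adjusted p = 0.0017) for Cd200, smaller in size than the -4.26 of Cd274 over all samples, and -2.04 (adjusted p = 0.031) for Cd86, which had -2.22 without replicate 1 of every group. All 7 were below 0 in 3 of 3 sets of same-numbered samples. For Cd80 the difference was 0.06 (95% interval from -1.23 to 1.35), and for Havcr2 it was 0.93 (SE 0.59, adjusted p = 0.289), and 1.01 (SE 0.38, adjusted p = 0.0475) with the block. The cells compared for the second dose started from the primed level, which for Cd274 was already 81.2% of the LPS-stimulated level and for Cd40 1.60%. The primed cells had spent 24 h in LPS when harvested and the tolerant cells a further 3 h in fresh medium, so the second dose and that medium change cannot be told apart.

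**Figure D3:**
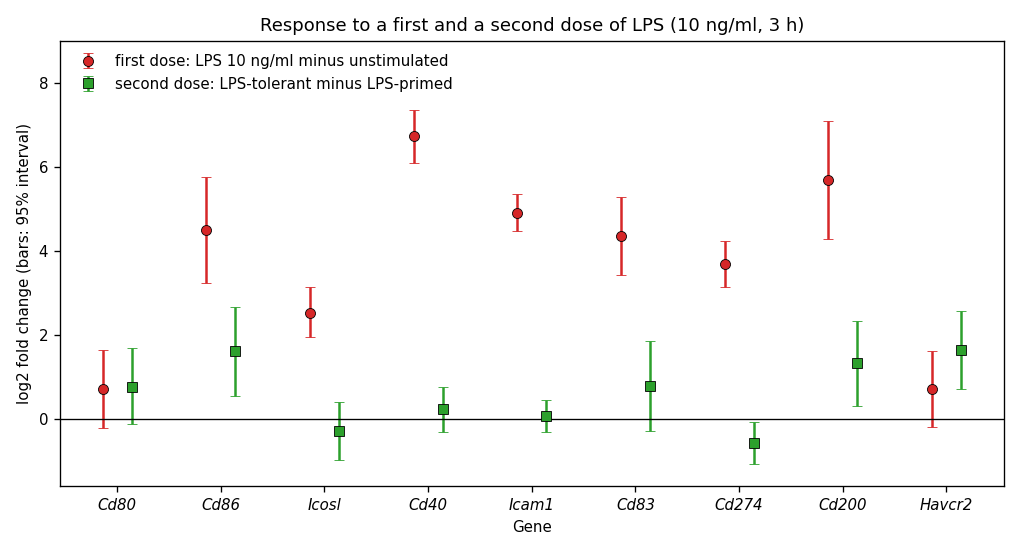
Log2 fold change of the 9 tested genes after a first dose of LPS at 10 ng/ml (circles, LPS-stimulated minus unstimulated BMDMs) and after the same dose following priming (squares, LPS-tolerant minus LPS-primed BMDMs), with 95% intervals. The intervals of the first and second dose did not overlap for Cd86, Icosl, Cd40, Icam1, Cd83, Cd274 and Cd200, whereas they did for Cd80 and Havcr2.

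Replicate 1 stood apart for 4 of the genes. In all 4 groups that had been primed, replicate 1 held the highest value of Cd80, Cd86, Cd200 and Havcr2, and in LPS-primed BMDMs it had 2.48, 3.43, 3.44 and 2.53 times the mean of the other samples. In unstimulated BMDMs replicate 1 was the lowest sample for the same 4 genes. Cd274 and Cd83 were highest in replicate 1 in 3 of those 4 groups. Icam1 was lowest in replicate 1 in all 4, and Cd40 in 3. The monocyte and macrophage marker Cd14 was also highest in replicate 1 of the primed groups, at 2.0 to 2.27 times the mean of the others, as was S100a8, an alarmin gene of neutrophils and activated monocytes, at 2.08 to 3.07 times. Mertk and Adgre1 (F4/80), genes of mature macrophages, were lowest in replicate 1 of those groups, at 0.46 to 0.598 and 0.684 to 0.777 times. The macrophage markers Csf1r and Lyz2 had replicate 1 in the middle in each of those groups, at 0.956 to 1.11 and 0.864 to 0.99 times. Unstimulated replicate 1 was likewise lowest for Mertk (0.475 times) and Adgre1 (0.708 times) and highest for Cd14 (1.52 times) and S100a8 (1.39 times). The neutrophil list summed to 84.3 to 438 normalised counts in LPS-primed samples, nearly all of it from S100a8, with Ly6g, Mpo, Retnlg and Cxcr2 at 0 counts. The part of these genes in the values of replicate 1 was not tested.

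Carboplatin moved none of the genes past the threshold. In LPS-primed BMDMs 0 of the 9 were called, where 0.0% of all tested genes were called higher and 0.372% lower, and in LPS-tolerant BMDMs 0 were called, against 0.0177% and 0.407%. By edgeR without the block 0 of the 9 had an unadjusted p under 0.05 in either comparison. Of all 11305 tested genes, 776 had one in LPS-primed and 761 in LPS-tolerant BMDMs, so few of any 9 genes would have one. With the block the unadjusted p was 0.034 for Cd80 in LPS-primed (log2FC 0.60, adjusted p = 0.313) and 0.049 for Cd86 in LPS-tolerant BMDMs (log2FC -0.61, adjusted p = 0.402). With the block 0 of the 9 were called, and DESeq2 and limma-voom also called 0. At the limits of the study for carboplatin, with an adjusted p under 0.25, the calls were 0 as well (0.00885% higher and 0.257% lower over all genes in LPS-primed, 0.0531% and 0.336% in LPS-tolerant BMDMs). The median log2FC of the 9 genes was 0.21 in LPS-primed and -0.09 in LPS-tolerant BMDMs, beside 0.01 in each over all genes. The intervals differ in width: for Icam1 the effect lay between -0.33 and 0.43 in LPS-primed and between -0.14 and 0.62 in LPS-tolerant BMDMs, whereas for Cd83 it lay between -0.90 and 1.32 and between -1.2 and 0.84.

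**Figure D4:**
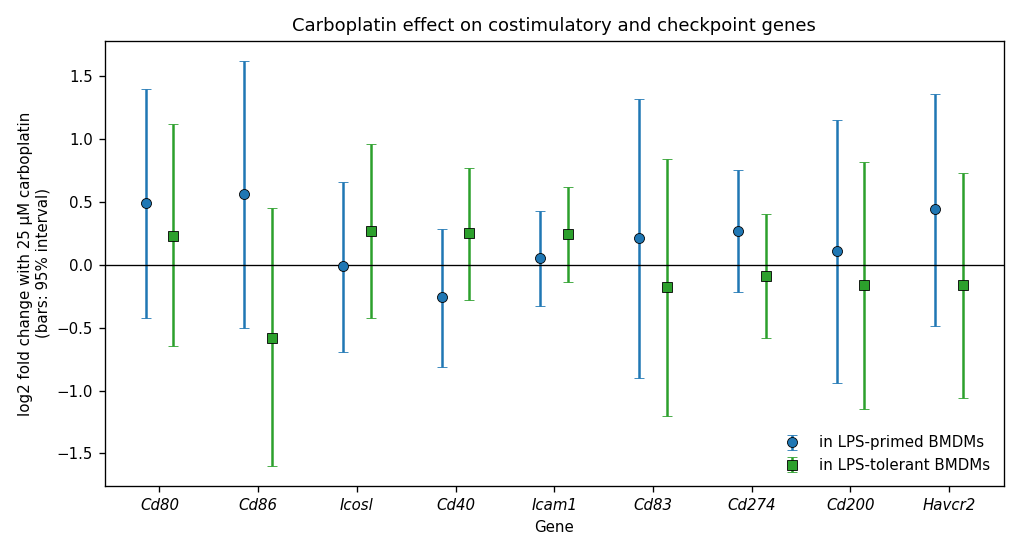
Log2 fold change with 25 µM carboplatin of the 9 tested genes in LPS-primed (circles) and LPS-tolerant BMDMs (squares), with 95% intervals. All 18 intervals include 0, and Cd86 had the values that lay farthest apart, 0.56 and -0.58.

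The Cd86 values with carboplatin differed in sign between both states, and neither value nor their difference passed the test. Given carboplatin, LPS-primed samples held 303, 91.2 and 131 normalised counts (222, 54.7 and 75.0 without it), and LPS-tolerant samples held 358, 137 and 228 (499, 254 and 325 without it). In 3 of 3 same-numbered pairs the value was higher with carboplatin in LPS-primed and lower in LPS-tolerant BMDMs, while the ranges overlapped. The log2FC was 0.56 (SE 0.49, adjusted p = 0.941) and -0.58 (SE 0.47, adjusted p = 1), and the test of their difference gave -1.14 (SE 0.68, adjusted p = 1), or -1.21 (SE 0.42, adjusted p = 1) with the block. Over the fits that each lacked 1 sample, the value in LPS-primed BMDMs ran from -0.08 to 1.41 and thus changed sign, and that in LPS-tolerant BMDMs ran from -0.97 to -0.27. The ratio of Cd86 to Cd80 counts in LPS-tolerant samples was 1.11, 0.845 and 0.969 with carboplatin, below the 3 samples without it (difference of -0.93 on the log2 scale, unpaired exact permutation p = 0.10, the smallest possible, adjusted 0.15). Within same-numbered pairs the difference was -0.52, -1.43 and -0.83. In LPS-primed samples the ratio was 1.49, 0.581 and 0.909 with carboplatin, and the difference of 0.02 had an exact p of 1.0.

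PD-L1 RNA was high with and without the drug. Cd274 had 1581, 1560 and 1343 normalised counts in LPS-primed samples given carboplatin, all above the 1216 to 1267 of those without it, with a log2FC of 0.27 (95% interval from -0.22 to 0.75, adjusted p = 0.938). In LPS-tolerant samples given carboplatin it had 918, 795 and 639, within the range of those without it (605 to 1085). Cd40 in the same samples had 105, 114 and 124 normalised counts, 2.23% of the LPS-stimulated level, Icosl 52.4, 22.8 and 33.1 (4.30%), Cd83 51.1, 14.8 and 25.7 (1.69%), and Icam1 1867, 2630 and 2085 (10.3%). The low levels of these 4 genes in tolerant cells were therefore also present with carboplatin.

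The likeness of the genes over the 18 samples is given as Pearson's r of log2 CPM, in which the points share groups and libraries. Cd86 and Cd200 had r = 0.98, Cd40 and Icam1 0.96, and Icosl and Cd83 0.96, while Cd80 and Icosl had -0.32. Among all other tested genes, Cd40 was most like Tnfaip2 (0.989), Rcan1 (0.982) and Tmem200b (0.977). Icam1 was most like Junb (0.983), which encodes an AP-1 subunit, and Rnf19b and Tnip3 (0.980 each), of which Tnip3 encodes a protein that restrains NF-κB. Icosl was most like Irf4 (0.970), Nox1 (0.968) and Mamld1 (0.966), and Cd83 like Mamld1 (0.966), Irf4 (0.965) and Il10 (0.960). Irf4 encodes an interferon regulatory factor of myeloid and lymphoid cells, and Il10 an anti-inflammatory cytokine.

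Cd86 was most like Plpp3 (0.980), the neutrophil chemokine gene Cxcl1 (0.959) and Agpat4 (0.957). Cd200 was most like Ifngr2 (0.985), a subunit of the interferon gamma receptor, Plpp3 (0.973) and the cytokine gene Il1a (0.969). For Cd274 the genes were Pfkfb3 (0.974), which encodes a regulator of glycolysis, Zfp558 (0.959) and Tma16 (0.953). Cd80, with Raet1e (0.914), Pdlim7 (0.891) and Acsbg1 (0.884), and Havcr2, with Homer3 (0.917), Pmp22 and Basp1 (0.881 each), had the lowest such values of the 9 genes.

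The bases before the start of 4 genes, the pairs Cd86 with Cd200 and Cd40 with Icam1, are shown so that their regulatory sequence can be read beside these values. Icosl and Cd83, a pair as alike as Cd40 and Icam1, held none of the motifs searched and are not printed. Each line gives the 250 bases before the start of the gene's canonical transcript, from GRCm39, 5′ to 3′ on the strand of the gene. Capitals mark a match to an NF-κB motif (GGG and TTCC with 3 free bases between them) or an AP-1 motif (TGANTCA), searched on both strands. The regions are chr2:164897294-164897543 (plus strand) for Cd40, chr9:20926422-20926671 (plus) for Icam1, chr16:36486440-36486689 (minus) for Cd86 and chr16:45229595-45229844 (minus) for Cd200.
Cd40: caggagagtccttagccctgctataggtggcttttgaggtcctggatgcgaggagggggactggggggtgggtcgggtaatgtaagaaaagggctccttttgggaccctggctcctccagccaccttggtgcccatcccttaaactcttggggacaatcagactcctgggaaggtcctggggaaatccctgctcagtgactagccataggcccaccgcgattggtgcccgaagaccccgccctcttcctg
Icam1: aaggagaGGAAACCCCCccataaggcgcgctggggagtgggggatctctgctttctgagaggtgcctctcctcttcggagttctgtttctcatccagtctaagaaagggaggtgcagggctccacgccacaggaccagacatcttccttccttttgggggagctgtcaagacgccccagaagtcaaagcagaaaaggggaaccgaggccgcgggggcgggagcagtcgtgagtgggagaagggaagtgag
Cd86: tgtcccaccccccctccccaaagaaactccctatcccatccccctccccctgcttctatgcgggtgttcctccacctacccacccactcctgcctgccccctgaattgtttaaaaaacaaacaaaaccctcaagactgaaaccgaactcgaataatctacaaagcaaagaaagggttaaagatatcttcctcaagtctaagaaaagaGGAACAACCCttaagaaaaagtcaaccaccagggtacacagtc
Cd200: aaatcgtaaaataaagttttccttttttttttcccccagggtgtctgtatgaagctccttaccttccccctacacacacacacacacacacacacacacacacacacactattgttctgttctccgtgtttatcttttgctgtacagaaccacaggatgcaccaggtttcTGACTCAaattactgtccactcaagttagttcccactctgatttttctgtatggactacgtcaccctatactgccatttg
Icam1 had an NF-κB match 243 to 234 bases before its start, and Cd86 had one 43 to 34 bases before. Cd200 held an AP-1 match 80 to 74 bases before its start, and in Cd40 neither motif, as spelled above, was found in this window. The Cd40 line does hold gggaaatccc, which has TCCC where the searched NF-κB motif has TTCC. Looser forms of the motif were not searched, so the lack of a match does not show that such a site is absent. Over all 10 genes, NF-κB matches were in 2 regions and AP-1 matches in 3, the others being Cd80 and Havcr2. A match to the interferon-stimulated response element (GAAA, any 2 bases, GAAA) was in 1 region, that of Cd274, 41 to 32 bases before its start. TTCNNNGAA, the STAT binding motif, was in 0. Of 21751 regions of the same length before protein-coding genes, 4.71% held the NF-κB, 6.17% the AP-1, 3.32% the interferon response and 7.70% the TTCNNNGAA motif. Each gene held at most 1 match, so that no matches overlapped.

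Related genes were read from lists of other B7 proteins, nectins, SLAM receptors, TNF family costimulators, CD40 adaptors, adhesion molecules, inhibitory receptors and ligands, T cell receptors for the genes above and regulators of their surface turnover. Of 75 genes 49 were tested. After the single dose 22 were higher and 11 lower, after priming 19 and 6, in LPS-tolerant against LPS-stimulated BMDMs 13 and 18, and with the second dose 2 and 4. The percentages of all tested genes called are those given above. Their median log2FC was 0.14, 0.31, -0.28 and -0.03 in the same order. With carboplatin 0 of the 49 were called in either state. Of all tested genes, 0.0% were called higher and 0.372% lower in LPS-primed BMDMs, and 0.0177% and 0.407% in LPS-tolerant BMDMs. The study lists Tnfsf4, a gene of the TNF family list, as raised by carboplatin in LPS-tolerant BMDMs, at an adjusted p under 0.25 rather than 0.05.

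All 5 CD40 adaptors of the TRAF family were higher after the single dose and 3 of them were lower in LPS-tolerant BMDMs than after the single dose. Of all tested genes, 24.3% were called higher in the former and 18.3% lower in the latter comparison. Of the adhesion molecules, Vcam1, a partner of the integrin VLA-4, rose from 8.10 ± 4.34 to 837 ± 88.0 normalised counts (SD, n = 3) with the single dose (log2FC 6.64, SE 0.36, adjusted p = 4.1e-10) and stood at 32.7 ± 8.38 in LPS-tolerant BMDMs (log2FC -4.66 against LPS-stimulated). Pvr, a ligand of the TIGIT and CD226 receptors (log2FC 3.44, SE 0.23), and Cd44, a hyaluronan receptor (log2FC 3.54, SE 0.27), also rose with the single dose. Vsir, which encodes the inhibitory B7 protein VISTA, fell from 1968 ± 487 to 441 ± 92.6 (log2FC -2.16, SE 0.20, adjusted p = 2e-07), opposite to Cd86 and Cd274. Nectin4 (log2FC -2.73, SE 0.42) and Sirpa, the receptor of the CD47 signal against phagocytosis (log2FC -1.16, SE 0.19), fell as well.

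With priming, the sialic acid receptor gene Siglece rose from 30.2 ± 13.6 to 764 ± 129 normalised counts (log2FC 4.64, SE 0.34, adjusted p = 2.9e-08), and Slamf6 (log2FC 3.98, SE 0.45) and Pirb (log2FC 1.06, SE 0.11) rose too. Cd28 (log2FC -5.07), Alcam (-1.29) and Lair1 (-1.54) fell with priming. Cd28, the receptor of CD80 and CD86, had up to 272 counts in a sample, whereas Ctla4, Pdcd1 and Cd160 had 0 counts in every sample and Cd40lg and Btla at most 1. In LPS-tolerant against LPS-stimulated BMDMs Siglece (log2FC 3.08), Slamf6 (4.94) and Cd200r1 (1.16), which encodes the receptor of CD200, were higher. Vcam1, the 4-1BB ligand gene Tnfsf9 (-4.34) and F11r (-3.33) were lower. Tnfsf9 was uneven between LPS-stimulated samples, at 7606 ± 6641 normalised counts (SD, n = 3), against 376 ± 63.9 in LPS-tolerant samples. With the second dose Cd44 (1.11) and Lilrb4a (0.68) rose, and Nectin2 (-1.58), Vsir (-1.28) and Tnfsf14 (-2.33) fell. Pirb and Lilrb4a belong to families of near-identical genes, among which the counting could have split reads.

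The difference between the responses to both doses was called lower for 18 and higher for 9 of the 49 related genes. Of all tested genes, 13.3% were called lower and 10.5% higher. The difference was lower for Vcam1 (-7.26, SE 0.47, adjusted p = 9.8e-09), Tnfsf9 (-7.08, SE 0.68) and Pvr (-3.11, SE 0.30). It was higher for Cd200r4 (1.11, SE 0.26, adjusted p = 0.0041), Sirpa (1.10, SE 0.26) and Cd84 (1.2, SE 0.32). Of the costimulators of the TNF family 3 of 5 tested genes were lower and 0 higher, and of the CD40 adaptors 4 of 5 were lower and 0 higher.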

How the data were processed

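From stranded mRNA libraries sequenced in pairs, the authors made alignments to GRCm39 by HISAT2 and deposited HTSeq-count tables of raw counts, read pairs per gene without normalization. Not given in the sources used here are program versions, annotation and strand option, and overlapping genes could therefore share or lose reads. Pairs on no feature were left out of the library sizes.

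All 18 samples entered a single fit with a mean for each of 6 groups, using edgeR 4.0.16 in R 4.3.3 (TMM, filterByExpr with a minimum count of 10 and a minimum total of 15, quasi-likelihood F test, Benjamini-Hochberg over 11305 genes). The SE was taken as the size of the log2FC over the root of F, and the 95% intervals use 12 residual degrees of freedom. The fit was tested on simulated counts. RPKM used the summed exon length of GENCODE vM39 on GRCm39, which also gave the positions. Count ratios were compared by exact permutation tests over samples in SciPy 1.17.1. The main fit held no block, since the study states none, and calls are from that fit unless the block is named. The block added the replicate number of the labels. After removal of the group means, same-numbered samples correlated at 0.18 to 0.57 in all 18 pairs of the 6 pairwise comparisons. For the block and the same-numbered pairs, the numbers were therefore taken to pair the samples. Alternatives used limma 3.58.1 (voom), DESeq2 1.42.0, other size factors, filters and limits, and each sample left out.

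The genes and lists were chosen with earlier results of these data known. The text names all 10 genes, the 3 related genes with the smallest adjusted p in each direction of each comparison, and the 3 genes most correlated with each member, leaving out Gm, Rik and -ps symbols.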

Additional observations from a re-analysis of the deposited data

Results flagged for a closer look

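For 7 genes the response to a second dose of LPS differed from the response to a first by the test of the difference itself, as log2FC and edgeR adjusted p: Cd40 -6.49 (2.2e-09), Icam1 -4.84 (1.7e-09), Cd200 -4.36 (0.00072), Cd274 -4.26 (7.6e-08), Cd83 -3.56 (0.00052), Cd86 -2.88 (0.0081) and Icosl -2.81 (7.9e-05). Of all tested genes, 13.3% were called in this direction. The Cd86 effect of carboplatin was positive in all 3 pairs of LPS-primed samples and negative in all 3 pairs of LPS-tolerant samples, and the test of the difference gave -1.14 (SE 0.68, adjusted p = 1 by edgeR). Over the fits that each lacked 1 sample, the carboplatin value of Cd86 in LPS-primed BMDMs ran from -0.08 to 1.41. Dixon's test for a single outlying sample was not run, since each group held 3 samples.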

How the results depend on the processing

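With the replicate block, the fit counted 4 higher and 1 lower gene in LPS-tolerant against LPS-primed BMDMs (1 and 0 without it) and 1 higher in the difference of both doses (0 without it). Over all 11305 tested genes it called 1093 higher and 941 lower in the former, and 1939 higher in the latter. Besides the calls given with each gene, the block changed no other call among the 9 genes.

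The number of genes higher in LPS-tolerant than in LPS-primed BMDMs was 2 with no expression filter, with DESeq2 and with limma-voom. The 2 genes were Cd86 and Havcr2. Over all tested genes these settings called 363 of 15486, 633 of 11582 and 405 of 11305 higher. The number was 3 without replicate 1 of every group, a setting chosen after seeing the data (435 of 11356 over all tested genes). It was 0 with the samples of the compared groups only (275 of 10610) and 0 at the limits of the study (a log2FC beyond 2). Without any 1 sample it lay between 0 and 3. The number higher after priming was 3 at the limits of the study, and without replicate 1 of every group 1 gene was higher in the difference of both doses (1353 of 11356 over all tested genes). In all other counts the alternatives stayed within 1.5 times. Without 1 sample, 2 of 72 log2FC values lost their call (Cd40 after priming and Havcr2 after the second dose) and 2 gained one (Cd86 and Cd200 after the second dose).

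Library size alone moved the median log2FC of all genes from -0.09 to -0.43 after the single dose, from -0.02 to -0.26 after priming and from 0.06 to 0.30 in the difference of both doses, and turned the calls over all genes from 2749 higher and 3040 lower to 1847 and 4636 after the single dose, from 1370 and 1477 to 932 and 2598 after priming, and from 1190 and 1501 to 1862 and 1078 in that difference. Over all genes the block called 2132 higher and 2235 lower after priming, 1939 and 2152 in the difference of both doses, 1093 higher and 941 lower after the second dose (407 and 306 without it), and 27 and 173 with carboplatin in LPS-primed (0 and 42) and 38 and 162 in LPS-tolerant BMDMs (2 and 46). DESeq2 called 6 and 113, and 15 and 129, for carboplatin. Signs turned only for values called in neither fit: Icam1 after the second dose (-0.03) and Icosl with carboplatin in LPS-primed BMDMs (0.01) with library size alone, the latter also with limma-voom (0.01). Without replicate 1 of every group they turned for Cd80 after priming (-0.03), Cd200 (0.22) and Icosl (-0.06) with carboplatin in LPS-tolerant BMDMs, and Icosl in the difference of the carboplatin effects (-0.04). A filter of at least 10 counts in every sample left Cd200 without a value. The cause was not tested.

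Leaving out each sample in turn moved the values whose sign turned over these ranges of log2FC. Ranges were, for Cd200 from -0.80 to 0.01 and Cd86 from -0.41 to 0.10 in LPS-tolerant against LPS-stimulated BMDMs. Ranges were, for Cd40 from 0.00 to 0.41 after the second dose. Ranges were, for Cd80 from -0.39 to 0.63 in the difference of both doses. Ranges were, for Cd200 from -0.22 to 0.96, Cd83 from -0.15 to 0.58, Cd86 from -0.08 to 1.41, Havcr2 from -0.29 to 1.03, Icam1 from -0.01 to 0.09, Icosl from -0.15 to 0.21 and the log2 ratio of Cd86 to Cd80 from -0.32 to 0.36 with carboplatin in LPS-primed BMDMs. Ranges were, for Cd200 from -0.45 to 0.36, Cd274 from -0.28 to 0.13, Cd80 from -0.07 to 0.67, Cd83 from -0.72 to 0.21, Havcr2 from -0.39 to 0.18 and Icosl from -0.07 to 0.59 with carboplatin in LPS-tolerant BMDMs. Ranges were, for Cd200 from -1.12 to 0.25, Cd80 from -0.83 to 0.18, Havcr2 from -1.19 to 0.12 and Icosl from -0.06 to 0.60 in the difference of the carboplatin effects.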
